A study of Mus musculus with 18 samples.

Results

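The genes described here are the nuclear-encoded subunits of the mitochondrial respiratory chain and of the ATP synthase. They were taken from the deposited gene table by symbol alone. The rule kept symbols that begin with Nduf and a subunit letter and number, Ndufab1, Sdha, Sdhb, Sdhc, Sdhd, and symbols that begin with Uqcr, Cox4 to Cox8 or Atp5, and left out 9 pseudogene names that hold -ps. This gave 90 of the 55450 gene IDs, of which 41 are named for complex I, 4 for complex II, 8 for complex III, 19 for complex IV and 18 for the ATP synthase.

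The study examined CD38, an enzyme that consumes NAD+, in bone marrow derived macrophages (BMDMs) exposed to monosodium urate (MSU) crystals, the crystals of gout. The 18 libraries formed 6 groups of 3, namely CD38KO + MSU, CD38KO non-treated, WT + MSU + apigenin, WT + MSU, WT + apigenin and WT non-treated. CD38KO and WT mice were of either sex on the C57BL6/J background, and apigenin, a plant flavonoid used as a CD38 inhibitor, was given to WT cells only. All cells were grown in L929-conditioned medium, primed for 24 h with 20 ng/ml of GM-CSF, and then kept for 6 h without crystals or with MSU crystals at 0.2 mg/ml, with or without apigenin (25 µM). For all 6 apigenin libraries the sample titles and the treatment tags give opposite MSU states, and the titles were followed here. The study describes the libraries of CD38KO + MSU, WT + MSU + apigenin, WT + MSU and WT non-treated as biological replicates. Whether the libraries of a group came from separate animals or cultures is not given in the labels, so the p-values measure the spread between these libraries, which may in part be technical.

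The respiratory chain passes electrons from NADH and succinate to oxygen and pumps protons across the inner mitochondrial membrane, and the ATP synthase uses the proton gradient to make ATP. Complex I oxidises NADH to NAD+, complex II also belongs to the tricarboxylic acid (TCA) cycle, complex III hands electrons to cytochrome c, and complex IV reduces oxygen. Complexes I, III, IV and V (the ATP synthase) combine subunits encoded in the nucleus with subunits encoded in the mitochondrial genome, whereas complex II is encoded in the nucleus alone. In macrophages, the use of this chain is known to shift with the state of activation.

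Libraries held between 51058336 and 83209648 counts. Cd38, the targeted gene, had 0.301 to 1.17 CPM (counts scaled to library totals after TMM normalisation) in the 6 CD38KO libraries against 18.4 to 92.9 CPM in the 12 WT libraries, which fits the genotype labels. All 6 macrophage markers were detected in every group, whereas erythroid and lymphocyte markers summed to at most 1.48 and 4.09 CPM. The 6 fibroblast markers, however, summed to 82.1 to 315 CPM in the 6 CD38KO libraries against 571 to 6669 CPM in the 12 WT libraries, and the 5 endothelial markers to 3.30 to 15.0 CPM against 10.7 to 97.5 CPM. The 6 neutrophil markers summed to 8.26 to 20.9 CPM in the CD38KO libraries against 7.74 to 204 CPM in the WT libraries. For each of these cell types replicate 3 was the lowest library in each WT group. In bulk libraries, fewer cells of a type and less RNA per cell cannot be told apart.

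The nuclear-encoded subunit genes differed widely in RNA level in these macrophages. In WT non-treated cells the highest levels per transcript length were those of Cox6b1, at 320.7 ± 29.8 FPKM (fragments scaled for gene length and library size; SD, n = 3), Cox6a1 at 226 ± 43.1 FPKM and Cox4i1 at 204 ± 42.7 FPKM, all subunits of complex IV. Their ranges were not separated throughout, since Cox6a1 spanned 192 to 274 FPKM and Cox4i1 spanned 162 to 248 FPKM. Of the 90 genes, 84 passed the filter for testing (at least 1 FPKM in at least 3 libraries), as did 12025 of all genes. Among these 84, the lowest median over all 18 libraries was 0.79 FPKM (Cox6a2). The 6 untested members were a further ID for Atp5o, Cox7b2, Cox8b and Cox8c (all without a count in any library), Ndufa11b (at most 8 counts) and Cox6b2 (at most 57 counts). Cox7b2, Cox8b, Cox8c and Cox6b2 are forms known from testis or striated muscle. Ndufs6b, Ndufb4c and Cox6c2, which were tested, and Ndufa11b are annotated as processed pseudogenes, and reads shared with their parent genes could have been placed in either copy, so their values are uncertain.

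The promoters of the members were searched for motifs of known regulators of this gene set. Windows from 250 bases before to 50 bases after a gene's start were found in RefSeq (GRCm38.p6) for 69 of the 89 member names, and were searched on both strands for GCGCA and GCGC with any base between them (bound by NRF1), AAGATGGCG (YY1), CCGGAAG (ETS factors such as GABPA) and AAGGTCA (oestrogen-related receptors such as ERRα). The NRF1 letters were in 17 of the 69 members (24.6%) and in 5.14% of the other 26956 symbols. The YY1 letters were in 7 members (10.1%, against 1.62%), the ETS letters in 16 members (23.2%, against 9.89%) and the oestrogen-related receptor letters in 8 members (11.6%, against 5.36%). These 4 motifs were searched separately, and a match describes the letters alone. The other symbols were not limited to genes tested here, so genes with little or no RNA in these cells are among them. To show the range, the 250 bases upstream of the start are printed for the member of each complex with the largest mean response to apigenin among those that passed in both apigenin comparisons and have a window. All 5 genes lie on the minus strand, and the windows are chr6:11907451-11907700 (Ndufa4), chr9:50603850-50604099 (Sdhd), chr10:80406822-80407071 (Uqcr11), chr19:7217617-7217866 (Cox8a) and chr15:102671048-102671297 (Atp5g2, where the RefSeq start lies 1305 bases inside the GENCODE gene). Capitals mark the matches that lie within the printed bases, which are NRF1 and, on the opposite strand, ETS in Sdhd, ETS in Uqcr11 and NRF1 in Atp5g2.
Ndufa4: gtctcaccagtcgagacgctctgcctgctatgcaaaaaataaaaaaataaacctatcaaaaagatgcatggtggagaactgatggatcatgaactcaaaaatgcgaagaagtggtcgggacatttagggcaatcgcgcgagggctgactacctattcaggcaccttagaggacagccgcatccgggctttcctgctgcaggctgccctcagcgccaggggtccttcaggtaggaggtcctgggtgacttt
Sdhd: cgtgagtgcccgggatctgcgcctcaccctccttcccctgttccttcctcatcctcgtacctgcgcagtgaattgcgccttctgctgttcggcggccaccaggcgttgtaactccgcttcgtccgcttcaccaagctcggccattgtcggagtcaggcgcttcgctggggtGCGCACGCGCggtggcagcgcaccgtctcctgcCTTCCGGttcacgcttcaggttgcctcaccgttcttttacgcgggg
Uqcr11: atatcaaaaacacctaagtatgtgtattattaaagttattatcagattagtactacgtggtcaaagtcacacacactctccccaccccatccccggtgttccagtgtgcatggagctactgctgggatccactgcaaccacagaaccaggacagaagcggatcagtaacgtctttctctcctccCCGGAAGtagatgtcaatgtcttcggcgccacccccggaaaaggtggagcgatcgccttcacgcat
Cox8a: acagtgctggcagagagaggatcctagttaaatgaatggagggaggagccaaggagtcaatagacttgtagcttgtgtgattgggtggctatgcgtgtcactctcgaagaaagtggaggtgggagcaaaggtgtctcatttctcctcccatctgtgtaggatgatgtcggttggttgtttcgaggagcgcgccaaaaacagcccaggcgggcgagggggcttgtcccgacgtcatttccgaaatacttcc
Atp5g2: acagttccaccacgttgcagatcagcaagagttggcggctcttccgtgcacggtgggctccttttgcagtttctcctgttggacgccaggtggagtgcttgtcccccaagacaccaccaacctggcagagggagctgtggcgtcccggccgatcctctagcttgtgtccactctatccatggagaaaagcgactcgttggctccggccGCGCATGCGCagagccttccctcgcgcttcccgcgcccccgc
The printed bases of Ndufa4 and Cox8a held no whole match. In the whole windows, which run on past the start, Cox8a also held the ETS letters and Sdhd the oestrogen-related receptor letters, and both count among the members given above.

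Apigenin was compared with its absence first in cells without crystals (WT + apigenin vs WT non-treated). Subunit genes of all 5 complexes were higher with apigenin on the scale of the main test (edgeR's quasi-likelihood test, adjusted p under 0.05), where 64 of 84 rose and 0 fell, whereas over all 12025 genes 22.6% rose and 28.1% fell. The members' median log2FC was 1.00 (quartiles 0.71 and 1.24), against -0.02 over all genes tested (quartiles -1.04 and 0.78). In 66 of 84 members every WT + apigenin library was above every WT non-treated library, compared with 27% of all genes, and in 0 every one was below (32% of all genes). With a log2FC of at least 1 also required, 39 rose (13.1% of all genes). By complex, the genes that rose were 25 of 40 in complex I, 4 of 4 in complex II, 7 of 8 in complex III, 13 of 15 in complex IV and 15 of 17 in the ATP synthase. The median log2FC was largest in complex IV (1.32), followed by the ATP synthase (1.13), complex I (0.90), complex III (0.89) and complex II (0.76).

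With crystals in both groups (WT + MSU + apigenin vs WT + MSU), the same question gave 73 of 84 members higher and 0 lower, against 26.7% higher and 32.1% lower over all genes. The members' median log2FC was 1.25 (quartiles 0.92 and 1.46), against -0.05 over all genes, and in 76 of 84 the libraries of the groups did not overlap (29.7% of all genes were higher without overlap and 36% lower). With a log2FC of at least 1 also required, 56 rose (18% of all genes). All 17 tested ATP synthase genes rose, as did 33 of 40 in complex I, 4 of 4 in complex II, 6 of 8 in complex III and 13 of 15 in complex IV. The complexes stood in the same order by median, with complex IV at 1.44, the ATP synthase at 1.26, complex I at 1.19, complex III at 0.97 and complex II at 0.94. Together, 63 members rose in both apigenin comparisons, 10 in neither, 1 without MSU alone and 10 under MSU alone. The difference between the comparisons was tested itself. In the interaction of MSU and apigenin, 0 of 84 members passed edgeR's test in either direction (0.441% of all genes were higher and 0.865% lower), 0 had an unadjusted p under 0.05 (14.1% of all genes), and every other fit tried also gave 0.

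**Figure D1:**
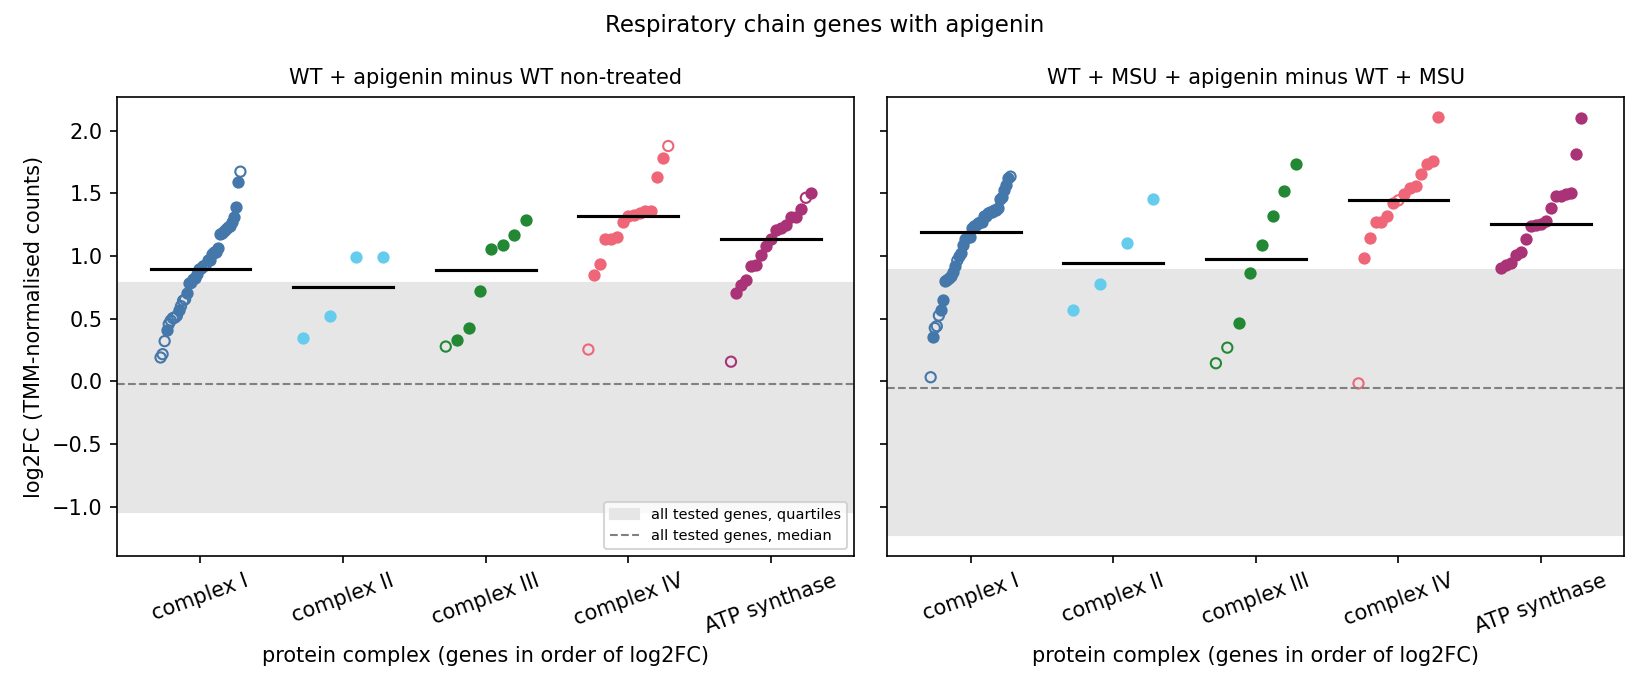
The log2FC (y axis) of each of the 84 tested members by complex (x axis, in order of log2FC within a complex) in both apigenin comparisons, with filled points for genes past the test, open points for the others, black bars for the median of a complex, and the quartiles (grey) and median (dashed) of all 12025 genes. Every complex has a median of at least 0.76, above the dashed line.

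The size of these changes depended on how libraries were scaled. When only library totals were used, the median of all genes fell to -0.71 without MSU and -0.76 under MSU, a shift of -0.69 and -0.71 from the main scaling. On that scale, 15 members rose and 5 fell without MSU, and 34 rose and 4 fell under MSU, with members' medians of 0.31 and 0.54. The share of higher genes among all genes called was then 10.1% without MSU, against 44.6% in the main test, and 16% under MSU, against 45.5%. The members that fell without MSU on that scale were Ndufa9, Sdhb, Ndufv2, Uqcrc2 and Uqcrfs1, and those that fell under MSU were Ndufa9, Ndufs1, Uqcrc2 and Uqcrfs1. The distance from the median of all genes was kept: it was 1.03 in the main test and 1.02 with library totals without MSU, and 1.31 and 1.30 under MSU. All 84 members stood above the median of all genes in both comparisons on each of these scales. The directions below are therefore relative to the bulk of the transcriptome.

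**Figure D2:**
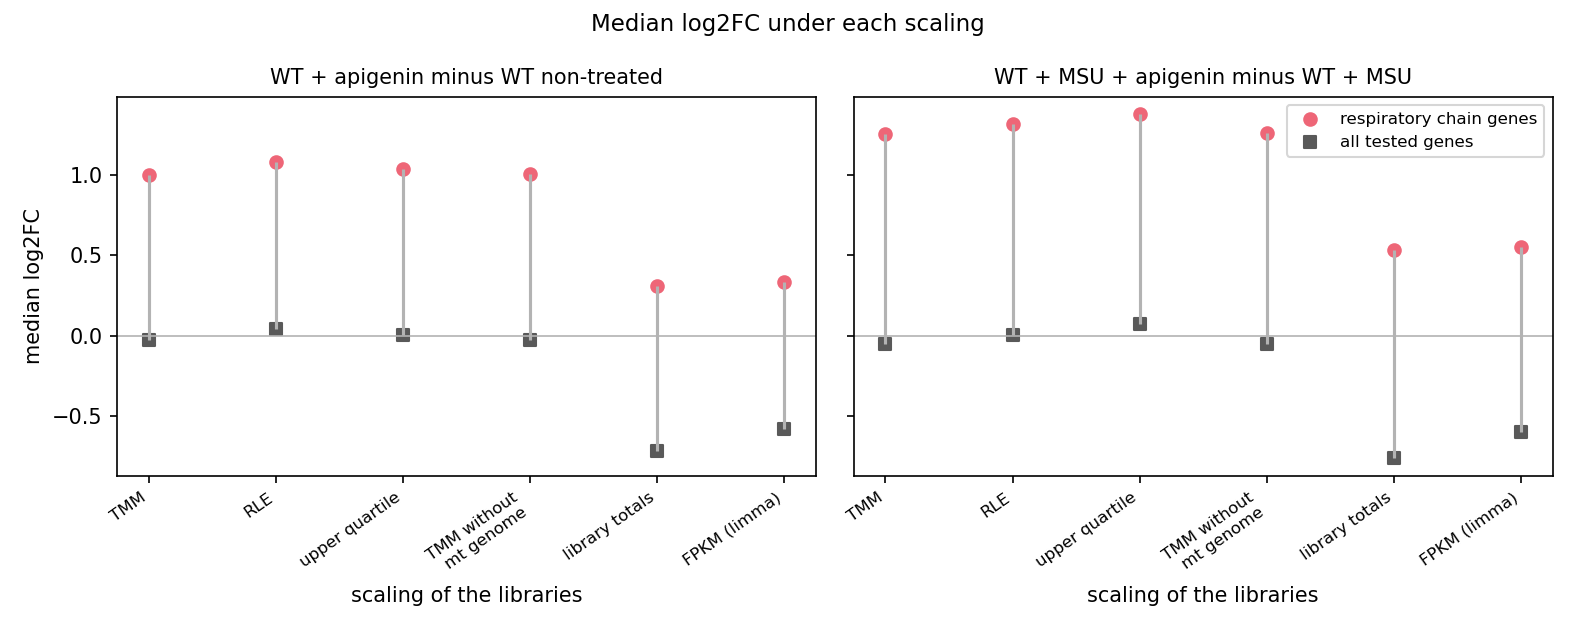
Median log2FC (y axis) of the 84 tested members (circles) and of all tested genes (squares) in both apigenin comparisons, under 6 scalings of the libraries (x axis). Both medians move down together when library totals or FPKM are used, and the members stay above all genes by about the same distance.

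The share of all counts that fell on the 90 members, which needs no scaling factor, was 1.03 to 1.08% in WT + apigenin against 0.756 to 0.941% in WT non-treated. It was 0.924 to 0.968% in WT + MSU + apigenin against 0.667 to 0.722% in WT + MSU. In neither pair did the libraries overlap. Without MSU this separation was seen in complex IV (0.263 to 0.297% against 0.163 to 0.211%) and the ATP synthase (0.361 to 0.371% against 0.262 to 0.311%), whereas the shares overlapped in complex I (0.230 to 0.259% against 0.191 to 0.250%), complex II (0.0669 to 0.0712% against 0.0631 to 0.0760%) and complex III (0.0863 to 0.0891% against 0.0767 to 0.0919%). Under MSU the share of every complex was above that in WT + MSU without overlap. The mitochondrial genome accounted for 9.60 to 10.2% of counts in WT + apigenin against 4.57 to 6.61% in WT non-treated, and 11.1 to 13.3% in WT + MSU + apigenin against 4.68 to 6.03% in WT + MSU. In the CD38KO groups the members took 0.694 to 1.05% (CD38KO + MSU) and 0.739 to 1.02% (CD38KO non-treated), so the CD38KO libraries varied more among themselves than those of any WT group.

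**Figure D3:**
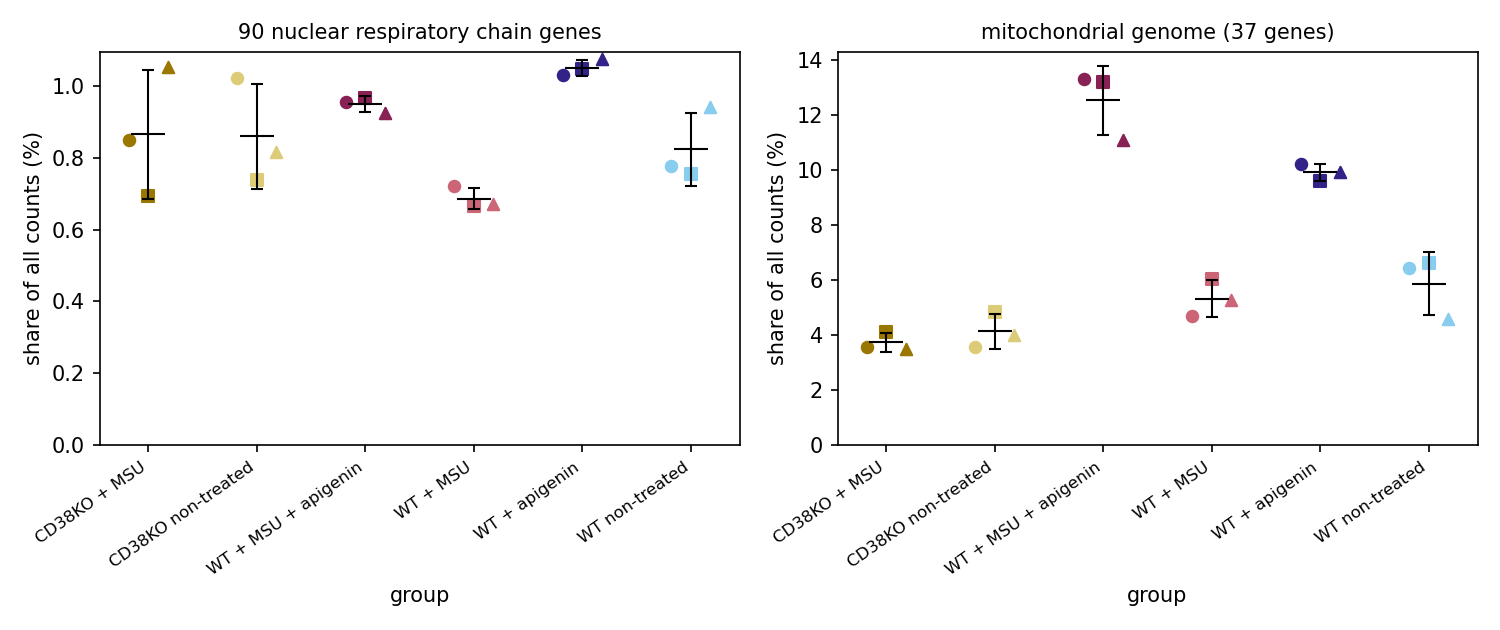
Percent of all counts of a library (y axis) on the 90 members (left) and on the mitochondrial genome (right), by group (x axis), with 1 point per library (circle, replicate 1, square, 2, triangle, 3) and the mean ± SD. Each apigenin group lies above its own control group in both panels, while the members' share in WT + MSU + apigenin (0.924 to 0.968%) overlaps that in WT non-treated (0.756 to 0.941%).

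In complex IV, the cytochrome c oxidase that reduces oxygen, Cox4i1 and Cox8a had large changes. Cox4i1, the common form of a subunit that regulates the enzyme, had 802, 958 and 1128 CPM in WT + apigenin against 215, 323 and 305 CPM in WT non-treated. With crystals it had 802, 827 and 645 CPM in WT + MSU + apigenin against 323, 264 and 356 CPM in WT + MSU. On this scale the groups were far apart in each pair, with log2FC of 1.78 ± 0.32 (SE, adjusted p = 0.000424) without MSU and 1.27 ± 0.32 (adjusted p = 0.00335) under MSU. In FPKM they were closer under MSU, at 347, 373 and 254 FPKM in WT + MSU + apigenin against 226, 187 and 225 FPKM in WT + MSU. The lowest log2FC of Cox4i1 under other settings was 1.07 without MSU and 0.57 under MSU. Cox8a, a small structural subunit, had 262, 237 and 315 CPM in WT + apigenin against 83.8, 79.5 and 99.1 CPM in WT non-treated, and 306, 299 and 291 CPM in WT + MSU + apigenin against 90.3, 82.4 and 91.7 CPM in WT + MSU. Its replicates were close and its log2FC was 1.63 ± 0.19 (adjusted p = 1.2e-05) without MSU and 1.76 ± 0.19 (adjusted p = 3.22e-06) under MSU. Cox5a and Cox5b, nuclear subunits close to the catalytic core, had smaller changes. Cox5a had log2FC of 0.93 without MSU and 1.15 under MSU, and Cox5b had 0.85 and 0.98. Without MSU, these calls for Cox5a and Cox5b were lost when WT + apigenin replicate 3 was left out (adjusted p = 0.13 and 0.0813) and likewise without WT non-treated replicate 1 (0.102 and 0.0853) or replicate 2 (0.107 and 0.085).

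Ndufa4 is named for complex I but is known as a subunit of complex IV. It had 171, 91.5 and 247 CPM in WT + apigenin against 69.3, 40.6 and 59.6 CPM in WT non-treated, and 147, 130 and 99.7 CPM in WT + MSU + apigenin against 38.1, 32.8 and 60.1 CPM in WT + MSU. The groups did not overlap although replicates of WT + apigenin spread widely, and the log2FC was 1.59 ± 0.43 (adjusted p = 0.00701) without MSU and 1.52 ± 0.43 (adjusted p = 0.00731) under MSU. AA467197 (Nmes1), its paralogue, which is known to be induced in inflamed macrophages, did not pass the main test in either apigenin comparison. With library totals it passed edgeR's test as lower under MSU (log2FC -1.31, adjusted p = 0.0104) and did not pass without MSU (0.18, adjusted p = 0.725). It had 10.2 to 21.3 CPM in WT + MSU against 3.34 to 8.64 CPM in WT non-treated, without overlap, at an adjusted p of 0.0799.

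In the ATP synthase, Atp5b and Atp5a1 of the catalytic head are given beside the members' medians of 1.00 without MSU and 1.25 under MSU. Atp5b, the catalytic beta subunit, had 1029, 939 and 962 CPM in WT + apigenin against 434, 414 and 409 CPM in WT non-treated, and 959, 1002 and 900 CPM in WT + MSU + apigenin against 455, 493 and 473 CPM in WT + MSU. On this scale the gap was several times the spread of the replicates, with log2FC of 1.22 ± 0.10 (adjusted p = 1.68e-06) and 1.01 ± 0.10 (adjusted p = 2.17e-06). In FPKM the groups under MSU were close, at 152, 165 and 130 FPKM in WT + MSU + apigenin against 117, 128 and 110 FPKM in WT + MSU. The lowest log2FC of Atp5b under other settings was 0.53 without MSU and 0.30 under MSU. Atp5a1, the alpha subunit, had log2FC of 0.77 without MSU and 0.92 under MSU, below the median in both. Its lowest values under other settings were 0.08 and 0.21. The proton-carrying c-ring is made from a protein encoded by Atp5g1, Atp5g2 and Atp5g3, which had log2FC of 1.31, 1.37 and 0.81 without MSU and 0.90, 1.81 and 0.95 under MSU. The call for Atp5g1 under MSU was lost without WT + MSU + apigenin replicate 2 (adjusted p = 0.0667) or WT + MSU replicate 1 (adjusted p = 0.0521).

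Atp5g2 had 309, 321 and 323 CPM in WT + MSU + apigenin against 94.2, 79.9 and 97.3 CPM in WT + MSU, a clear separation of groups. Atp5e, the epsilon subunit of the central stalk, had the widest spread among the ATP synthase genes with a large change. It had 194, 129 and 227 CPM in WT + MSU + apigenin against 47.6, 16 and 64.6 CPM in WT + MSU, a difference of 2.10 ± 0.65 in log2FC (adjusted p = 0.0123). Without MSU, it had 75.3, 165 and 299 CPM in WT + apigenin against 28.8, 36.1 and 130 CPM in WT non-treated, where the groups overlapped and the test was not passed (adjusted p = 0.0683). Atp5mpl, a small subunit of the membrane part, had log2FC of 1.5 without MSU and 1.28 under MSU. Atp5s, a coupling factor and not a core subunit, rose under MSU (log2FC 1.48, adjusted p = 0.0158) with overlapping libraries at 1.16 to 6.83 CPM. It had 0.894, 2.33 and 0.421 FPKM in WT + MSU + apigenin against 0.848, 0.643 and 0.551 FPKM in WT + MSU. Replicate 2 thus stood highest and replicate 3 was below every WT + MSU library in FPKM, so the rise is uncertain.

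**Figure D4:**
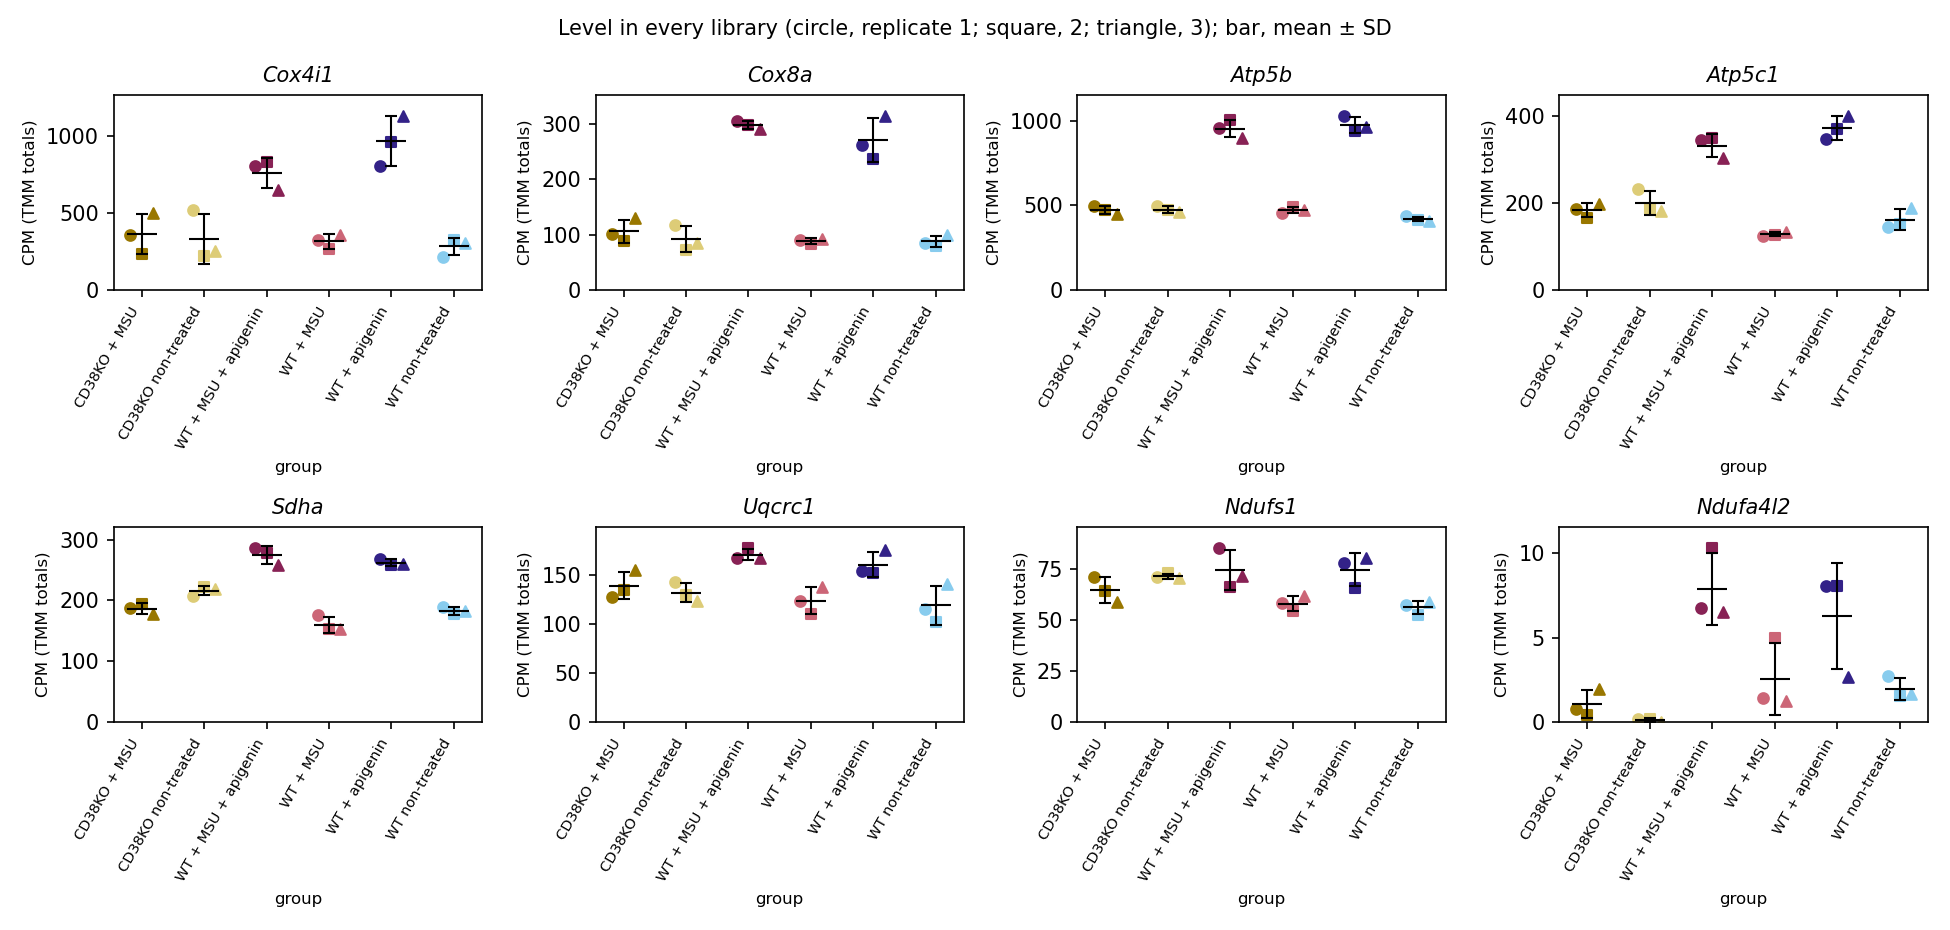
CPM on TMM-scaled totals (y axis) of 8 members in each library by group (x axis), with 1 point per library (circle, replicate 1, square, 2, triangle, 3) and the mean ± SD. The libraries of each apigenin group lie above those of its control group for 7 of the genes, and for Ndufa4l2 WT + apigenin replicate 3 (2.67 CPM) lies within the range of WT non-treated.

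In complex I, the values differed widely between subunits, and differences between genes were not tested. Ndufb5, an accessory subunit of the membrane arm with a large change, had 99.6, 84.2 and 151 CPM in WT + apigenin against 32.6, 45.5 and 50.1 CPM in WT non-treated (log2FC 1.39 ± 0.26, adjusted p = 0.000492), and log2FC was 1.26 ± 0.26 (adjusted p = 0.000726) under MSU. Ndufv1, which binds NADH and flavin, had log2FC of 0.90 without MSU and 1.09 under MSU. Ndufs1, which carries iron-sulfur clusters and is the largest core subunit, had 78, 65.6 and 80.8 CPM in WT + apigenin against 57.5, 52.7 and 58.8 CPM in WT non-treated. It rose by log2FC 0.41 ± 0.13 without MSU and 0.36 ± 0.12 under MSU, the smallest change of any complex I member that passed with separate groups, and its direction reversed with library totals (-0.29 and -0.35) and FPKM. These calls for Ndufs1 were lost without WT + apigenin replicate 3 (adjusted p = 0.0511) or WT non-treated replicate 2 (0.0554), and under MSU without WT + MSU + apigenin replicate 1 (0.124) or WT + MSU replicate 1 (0.0522) or 2 (0.0794).

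Ndufv2, the partner of Ndufv1 in the NADH module, did not pass without MSU, where WT + apigenin had 81.6, 97.1 and 121 CPM against 76.9, 78.7 and 107 CPM in WT non-treated. Under MSU it passed (log2FC 0.57 ± 0.21, adjusted p = 0.0317), with a direction that reversed with library totals (-0.14), and the call was lost without 1 of 4 libraries in turn (WT + MSU + apigenin replicates 1 and 3, WT + MSU replicates 1 and 2, adjusted p = 0.053 to 0.108). Ndufc2 likewise passed only under MSU (0.65 ± 0.23), reversed with library totals (-0.06), and lost its call without those same libraries (adjusted p = 0.058 to 0.0773). Other complex I members that passed in neither comparison were Ndufa9, Ndufa5, Ndufab1, Ndufs8, Ndufa4l2, Ndufb4c and Ndufs6b. Ndufa9, a subunit at the junction of the arms, had 63.8, 66.7 and 77.4 CPM in WT + apigenin against 56.9, 47.8 and 74.2 CPM in WT non-treated, so the groups overlapped. Its log2FC of 0.22 without MSU and 0.03 under MSU lay below that of Ndufs1.

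In complex II, the log2FC of the membrane anchors was larger than that of the catalytic subunits, a difference between genes that was not tested. Sdhd, an anchor subunit, had 223, 239 and 330 CPM in WT + apigenin against 111, 112 and 175 CPM in WT non-treated, and 220, 230 and 266 CPM in WT + MSU + apigenin against 77.8, 80.5 and 103 CPM in WT + MSU. The groups were separate in both pairs, with log2FC of 0.99 ± 0.22 (adjusted p = 0.00213) and 1.46 ± 0.23 (adjusted p = 8.32e-05). Sdhc, the other anchor, had log2FC of 0.99 without MSU and 1.10 under MSU, and both calls were lost with single libraries left out, among them WT + apigenin replicate 3 (adjusted p = 0.16), WT non-treated replicates 1 and 2 (0.0965 and 0.0948), WT + MSU + apigenin replicate 3 (0.0532) and WT + MSU replicate 2 (0.0559). Sdha, the flavoprotein that oxidises succinate, had 268, 258 and 259 CPM in WT + apigenin against 190, 177 and 182 CPM in WT non-treated. Its log2FC was 0.52 ± 0.10 without MSU, reversed with library totals (-0.17), and 0.78 ± 0.10 under MSU, where it was 0.07 with library totals. Sdhb, the iron-sulfur subunit, had log2FC of 0.35 ± 0.13 without MSU and 0.57 ± 0.13 under MSU, reversed with library totals in both (-0.34 and -0.13). Without MSU its call was lost when any of 5 libraries was left out, all but WT non-treated replicate 3 (adjusted p = 0.0611 to 0.142).

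In complex III, Uqcr11, a small subunit, had 72.7, 79.4 and 103 CPM in WT + apigenin against 33.2, 34.3 and 52.7 CPM in WT non-treated, and 83.8, 114 and 88.6 CPM in WT + MSU + apigenin against 29.5, 27.2 and 29.8 CPM in WT + MSU. The separation was wide in both, at log2FC 1.09 ± 0.24 (adjusted p = 0.0019) and 1.73 ± 0.25 (adjusted p = 3.71e-05). Uqcrc1, a core protein of the matrix side, had log2FC of 0.43 ± 0.14 without MSU and 0.46 ± 0.14 under MSU, and both reversed with library totals (-0.26 and -0.24). Without MSU its call was lost without WT + apigenin replicate 3 (adjusted p = 0.0612) or WT non-treated replicate 1 (0.0538) or 2 (0.0831). Uqcrc2, the other core protein, passed only without MSU (log2FC 0.33 ± 0.11), reversed with library totals (-0.36), and lost its call without WT + apigenin replicate 1 (adjusted p = 0.088) or WT non-treated replicate 2 (0.0655) or 3 (0.0725). Uqcrfs1, the Rieske iron-sulfur protein, passed in neither and was at log2FC 0.28 and 0.14.

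Coding length was compared with the response. Coding length, from GENCODE M21, was known for 81 of the 84 members, with a median of 423 bases against 1317 bases in the other 10233 genes with a value. Across these 81 genes, which share libraries and are not independent replicates, log2FC fell with log2 coding length, with Pearson's r of -0.47 and Spearman's rho of -0.50 without MSU, and -0.51 and -0.50 under MSU. The same direction was seen more weakly in the other genes (Pearson's r of -0.21 and -0.18). Members under 300 bases (21 genes) had a median log2FC of 1.27 without MSU against 0.79 in the 205 other genes of that length, and 18 of the 21 rose against 41.5% of the others. Members of 300 to 600 bases (39 genes) had medians of 0.97 without MSU and 1.24 under MSU, against 0.51 and 0.54 in other genes. Members of 600 to 1200 bases (12 genes) had 0.54 and 1.08 against -0.02 and -0.06, and the 9 members of 1200 bases or more had 0.77 and 0.92 against -0.42 and -0.49. The members therefore stood above other genes of the same length in each class, and the part of length in the response was not tested further.

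**Figure D5:**
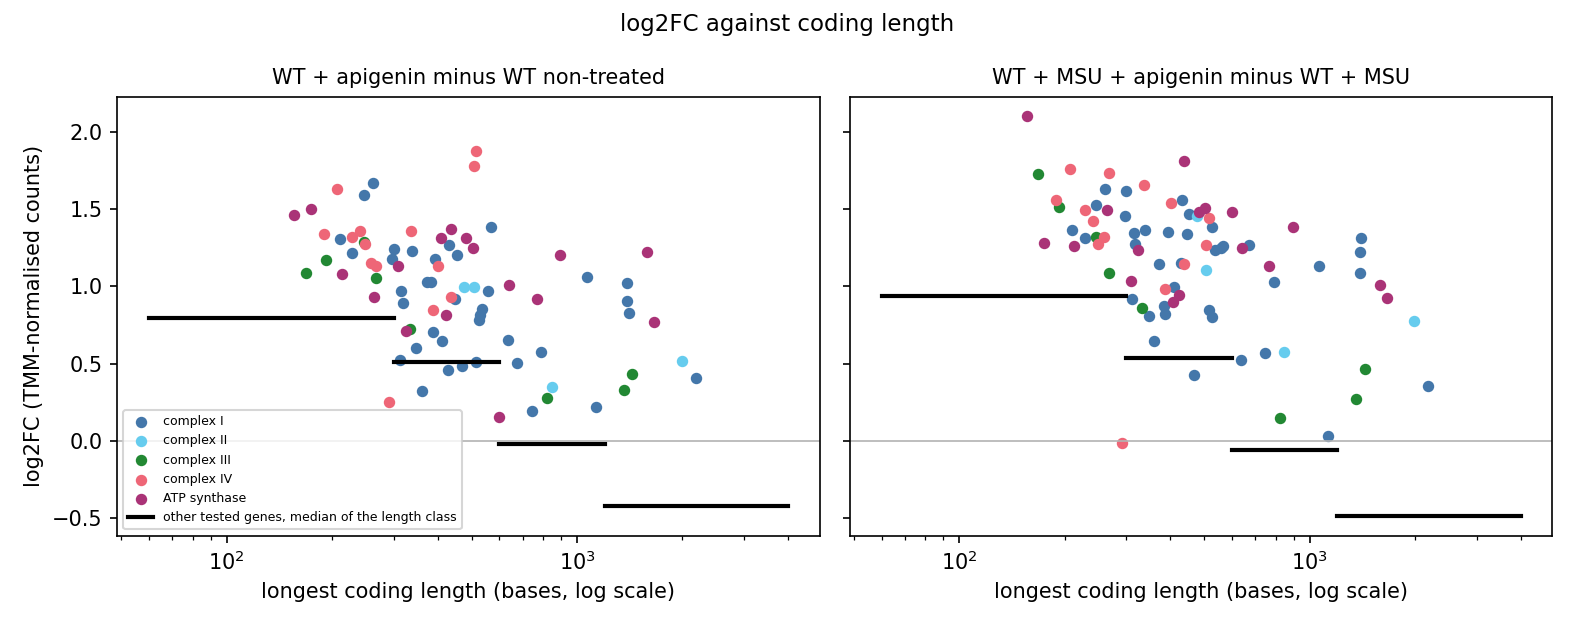
Log2FC (y axis) against the longest coding length (x axis, bases, log scale) for the 81 members with a value (points, by complex), with bars for the median of the other tested genes in each of 4 length classes, in both apigenin comparisons. Most members lie above the bar of their class, and the bars are lower at greater lengths. The members' class medians fall likewise, except that without MSU the longest class (0.77) is above that of 600 to 1200 bases (0.54).

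Members with and without each motif were set side by side, with no test. Those with the NRF1 letters had a median log2FC of 0.99 without MSU and 1.25 under MSU (17 genes), against 1.03 and 1.27 in the 49 tested members with a window and without them. With the YY1 letters (7 genes) the medians were 0.78 and 1.24, against 1.03 and 1.26 without them. With the ETS letters (16 genes) they were 1.06 and 1.25, against 0.95 and 1.26, and with the oestrogen-related receptor letters (8 genes) 0.98 and 1.26, against 1.02 and 1.26.

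Forms of subunits known from restricted tissues were at low levels here. Ndufa4l2, a hypoxia-inducible relative of Ndufa4, had 8.08, 8.07 and 2.67 CPM in WT + apigenin against 2.72, 1.54 and 1.65 CPM in WT non-treated, which was not called (adjusted p = 0.1). Cox4i2, the lung and hypoxia form of Cox4, had 3.94, 2.15 and 2.9 CPM in WT + apigenin against 1.19, 0.607 and 0.649 CPM in WT non-treated (adjusted p = 0.101). Cox7a1, the striated muscle form, had 2.43, 3.24 and 3.04 CPM in WT + apigenin against 1.32, 1.23 and 1.41 CPM in WT non-treated (log2FC 1.13 ± 0.41, adjusted p = 0.0335), a call lost without any 1 of 5 libraries (WT + apigenin replicates 2 and 3, WT non-treated replicates 1, 2 and 3, adjusted p = 0.061 to 0.0898). Under MSU, Cox7a1 had 3.2, 4.4 and 2.14 CPM in WT + MSU + apigenin against 1.71, 0.645 and 0.573 CPM in WT + MSU, at log2FC 1.74 ± 0.42. Cox6a2, the muscle form of Cox6a, passed in neither, at log2FC 0.25 and -0.02. Cox6c2, 1 of the annotated pseudogenes, had the largest log2FC of all members under MSU (2.10 ± 0.43), at 8.61, 4.28 and 5.92 CPM against 1.72, 1.62 and 1.02 CPM in WT + MSU.

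Fibroblast markers had higher summed levels with apigenin, although the ranges overlapped. They summed to 1518 to 6085 CPM in WT + apigenin against 571 to 2630 CPM in WT non-treated, and to 1819 to 6669 CPM in WT + MSU + apigenin against 646 to 3807 CPM in WT + MSU, with 1 of 6 markers higher without MSU and 0 of 6 under MSU by edgeR's test (unadjusted p under 0.05 in 1 and 0). The 6 macrophage markers summed to 44627 to 57930 CPM in WT + apigenin against 18409 to 22492 CPM in WT non-treated, and to 46811 to 60107 CPM in WT + MSU + apigenin against 17118 to 17690 CPM in WT + MSU. By edgeR's test 3 of 6 macrophage markers were higher without MSU (22.6% of all genes) and 6 of 6 under MSU (26.7%). Their median log2FC was 0.72 without MSU and 1.11 under MSU. Endothelial markers summed to 24.1 to 74.8 CPM in WT + apigenin against 10.7 to 42.8 CPM in WT non-treated, and to 26.9 to 97.5 CPM in WT + MSU + apigenin against 29.6 to 58.0 CPM in WT + MSU. Neutrophil markers summed to 23.2 to 192 CPM in WT + apigenin against 7.74 to 137 CPM in WT non-treated, and to 18.7 to 204 CPM in WT + MSU + apigenin against 12.6 to 204 CPM in WT + MSU. By edgeR's test 0 of the 5 endothelial and 0 of the 5 tested neutrophil markers passed in either apigenin comparison, with 1 and 2 endothelial and 0 neutrophil markers at an unadjusted p under 0.05. With replicate 3 alone from each WT group, the members' median log2FC was 0.91 without MSU and 1.19 under MSU, and 81 of 84 members were above 0 in each. Only 6 and 23 members passed in that fit, in which each lone WT library was taken to vary like the other groups. Fibroblast markers differed in those libraries too, at 1518 CPM in WT + apigenin against 571 CPM in WT non-treated. With crystals they were at 1819 CPM in WT + MSU + apigenin against 646 CPM in WT + MSU. The part of other cell types in the result was not tested.

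Other genes of oxidative phosphorylation are given beside the shares of all genes, which were 22.6% higher and 28.1% lower without MSU and 26.7% and 32.1% under MSU. With library totals those shares were 5.17% and 46.0%, and 9.09% and 47.8%. Of the 13 protein-coding genes of the mitochondrial genome, 12 rose in each apigenin comparison (median log2FC 1.31 and 1.71), and 5 and 9 still rose with library totals. mt-Co1, which encodes the catalytic subunit of complex IV, had 48487 to 49427 CPM in WT + apigenin against 12219 to 18678 CPM in WT non-treated. It had 55170 to 74796 CPM in WT + MSU + apigenin against 12175 to 15139 CPM in WT + MSU. Among 18 genes of the TCA cycle, 10 rose and 1 fell without MSU, and 12 rose and 3 fell under MSU (with library totals 4 rose and 5 fell in each). Idh2, a matrix isocitrate dehydrogenase, had log2FC of 1.70 under MSU and 0.99 with library totals. Among the 17 tested electron carriers and feeders, 6 rose and 2 fell without MSU, and 5 rose and 3 fell under MSU. With library totals 1 rose and 7 fell without MSU, and 1 rose and 8 fell under MSU. Of these, Coq2, which acts in coenzyme Q synthesis, had log2FC of 1.71 and 1.52 and passed on both scales. Cyc1, a haem-bearing subunit of complex III whose symbol lies outside the rule, had log2FC of 0.94 and 0.74. Cycs, cytochrome c itself, had 1.06 without MSU. With library totals neither passed, at 0.25 (adjusted p = 0.109) and 0.03 (0.849) for Cyc1 and 0.36 (0.152) for Cycs.

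Assembly factors went both ways. Of the 43 tested assembly factors, 12 rose and 7 fell without MSU and 12 rose and 10 fell under MSU, and with library totals 0 rose and 17 fell, and 4 rose and 19 fell. Their median log2FC was 0.24 without MSU and 0.21 under MSU. Those named next had the changes of greatest size among those that passed. Cox11 was at log2FC -3.10 without MSU. Ndufaf1, which helps to assemble complex I, was at log2FC -2.24 without MSU and -4.43 under MSU. Coa7, an assembly factor of complex IV, was at -2.94 and -3.89, and Sco1, which supplies copper to complex IV, was at -2.62 under MSU. Regulators were mostly lower. Of the 13 tested, 1 rose and 7 fell without MSU, and 1 rose and 10 fell under MSU (0 rose and 11 fell with library totals in each). Pprc1, a coactivator related to PGC-1α, had 2.77, 2.21 and 2.86 CPM in WT + apigenin against 20.1, 18.4 and 12.9 CPM in WT non-treated. Tfam, a factor in the transcription and packaging of the mitochondrial genome, had 5.99, 9.79 and 8.34 CPM in WT + apigenin against 20.9, 21.7 and 27.3 CPM in WT non-treated. The groups did not overlap for either gene, and the log2FC of Tfam was -1.54 ± 0.19 without MSU and -2.50 ± 0.20 under MSU. Nfe2l2, another of the regulators, was at log2FC -2.60 without MSU and -3.57 under MSU. Ppargc1a, which encodes PGC-1α, was listed at 0 in 15 of 18 libraries. Mitochondrial ribosomal proteins, which translate the mitochondrial messages, rose about as often as all genes, with 18 of 78 higher and 16 lower without MSU and 21 and 20 under MSU, and 2 higher and 41 lower, and 7 and 39, with library totals.

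With MSU crystals alone (WT + MSU vs WT non-treated, where apigenin comparisons share WT non-treated or WT + MSU as controls), no member passed the main test, although most had a log2FC below 0. By edgeR's test 0 of 84 members passed in either direction, against 3.66% higher and 3.36% lower of all genes, with 8 members at an unadjusted p under 0.05 (20.1% of all genes). DESeq2 gave 1 higher. Library totals gave 1 lower, limma on log2(FPKM + 0.5) 4, limma on log2(FPKM + 0.1) 2 and a replicate block 1. Only 13 of 84 members had a log2FC above 0 (46.9% of all genes) and the median was -0.26, against -0.03 over all genes. In the shortest class (coding length under 300 bases) members had a median of -0.32 against -0.19 in other genes. Sdhd came nearest, with 77.8, 80.5 and 103 CPM in WT + MSU against 111, 112 and 175 CPM in WT non-treated (log2FC -0.61 ± 0.22, adjusted p = 0.125). With library totals Sdhd passed edgeR's test as lower (log2FC -0.69 ± 0.18, adjusted p = 0.0326). Atp5c1, the gamma subunit, had 123, 127 and 132 CPM in WT + MSU against 145, 152 and 189 CPM in WT non-treated (-0.34 ± 0.14, adjusted p = 0.156). In neighbouring pathways Idh2 fell (-0.53, adjusted p = 0.0285), as did Dhodh (-1.10) and Coq9 (-0.59), while Gpd2, the inner membrane glycerol phosphate dehydrogenase, rose (1.34, adjusted p = 0.0235). Of these, Gpd2 and Coq9 did not pass with library totals (adjusted p = 0.055 and 0.0511).

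In CD38KO cells (CD38KO + MSU vs CD38KO non-treated), 0 of 84 members passed by edgeR's test (2.06% higher and 1.11% lower of all genes), 3 had an unadjusted p under 0.05 (16.8% of all genes), and DESeq2 gave 1 higher. The median was 0.13, with 64 of 84 above 0 (49.2% of all genes). Ndufa4l2 had 0.734, 0.412 and 1.97 CPM in CD38KO + MSU against 0.159, 0.183 and 0 CPM in CD38KO non-treated (log2FC 3.17 ± 0.91, adjusted p = 0.0737). In the interaction of MSU and CD38KO, 0 members passed in either direction (0% of all genes), with 3 at an unadjusted p under 0.05 (3.55% of all genes), namely Atp5j2, Ndufa4l2 and Ndufs3.

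Without crystals, the CD38KO and WT groups differed in 1 member (CD38KO non-treated vs WT non-treated, edgeR's test, 0 higher and 1 lower, against 0.798% and 4.11% of all genes). Ndufa4l2 had 0.159, 0.183 and 0 CPM in CD38KO non-treated against 2.72, 1.54 and 1.65 CPM in WT non-treated, that is 25 against 520 counts in all. The libraries did not overlap, and the fitted log2FC of -4.09 ± 0.94 (adjusted p = 0.0171) depends on a library without a count. The call was lost without CD38KO non-treated replicate 1 (adjusted p = 0.059), without WT non-treated replicate 1 (0.0539), with the groups of the comparison alone (0.102) and with WT replicate 3 alone (0.344). All 6 fibroblast markers and 2 of 5 endothelial markers were lower in CD38KO non-treated as well, and all 5 endothelial and all 5 tested neutrophil markers had a negative log2FC at an unadjusted p under 0.05. Their part in this result was not tested. Cox4i2, at 0.116, 0.196 and 0 CPM against 1.19, 0.607 and 0.649 CPM in WT non-treated, had log2FC -2.95 ± 1.00 and did not pass (adjusted p = 0.128). The members' median was 0.17, against 0.04 over all genes, with 71 of 84 above 0 (55.4% of all genes) and 5 at an unadjusted p under 0.05 (14.4% of all genes). This median depended on the libraries and the scaling. It was -0.18 with 21 of 84 above 0 when WT replicate 3 alone was used, and 0.04 with 53 of 84 above 0 with library totals.

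With crystals (CD38KO + MSU vs WT + MSU), 81 of 84 members had a log2FC above 0 (52.6% of all genes), with a median of 0.58, against 0.03 over all genes. Other short genes were higher too. Members under 300 bases had a median of 0.70 against 0.43 in other genes, those of 300 to 600 bases 0.60 against 0.32, those of 600 to 1200 bases 0.52 against 0.13, and those of 1200 bases or more 0.20 against -0.09. Of the 78 mitochondrial ribosomal protein genes, 71 had a log2FC above 0, with a median of 0.41. In 43 of 84 the CD38KO + MSU libraries were all above the WT + MSU libraries, against 15.3% of all genes, and 45 had an unadjusted p under 0.05, all of them higher (20.2% of all genes in either direction). Adjusted over all genes, however, only Atp5c1 passed (1.51% of all genes were higher and 2.93% lower), and 0 members passed with a log2FC of at least 1 (0.715% of all genes). It had 187, 165 and 198 CPM in CD38KO + MSU against 123, 127 and 132 CPM in WT + MSU, without overlap (log2FC 0.52 ± 0.14, adjusted p = 0.042). Sdhd, at 148, 116 and 188 CPM against 77.8, 80.5 and 103 CPM in WT + MSU, was next (0.80 ± 0.22, adjusted p = 0.0578), followed by Atp5j2, a subunit of the membrane part (0.70 ± 0.20, adjusted p = 0.0609). The number that passed ranged from 0 to 6 when single libraries were left out, at 6 without CD38KO + MSU replicate 2, 4 without WT non-treated replicate 3 and 2 without WT + apigenin replicate 3, and it was 0 in 10 of the 18 fits. The call for Atp5c1 was among those lost without CD38KO + MSU replicate 1 or 3 or any WT + MSU library (adjusted p = 0.068 to 0.197). DESeq2 gave 8. Of the 6 fibroblast markers, 4 were lower in CD38KO + MSU, and 4 of 5 endothelial and 4 of 5 neutrophil markers were lower only at an unadjusted p under 0.05. Their part was not tested. The WT + MSU libraries also serve as the control of apigenin under MSU, so the comparisons share them and are not independent.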

How the data were processed

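Poly(A) mRNA from 18 BMDM libraries was sequenced (TruSeq stranded) by LC Sciences. The notes of the submitters list HISAT2, StringTie, cutadapt, FastQC and edgeR, with no version and no genome build. All 55450 gene IDs match GENCODE M21 (GRCm38). The authors deposited raw counts and FPKM per gene, and a gene without reads carries an FPKM of 0.0001.

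The members and gene lists were chosen with earlier results of these data known. Genes with at least 1 FPKM in at least 3 libraries were tested on the deposited counts with edgeR 4.0.16 (R 4.3.3), using TMM factors, 1 quasi-likelihood fit of the 6 groups without a block, and Benjamini-Hochberg adjustment over all 12025 genes (threshold 0.05). SE is the log2FC divided by the square root of F. CPM are on TMM-scaled totals. The main test was tried on simulated counts for MSU in WT alone, with libraries drawn independently. Changes as broad as those with apigenin, and deviations shared between libraries, were not simulated. No pair of libraries in a group agreed within sampling noise.

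Genes were named by a rule: core, catalytic and c-ring subunits; in each comparison up to 5 members with the largest and 5 with the smallest log2FC among those past the test whose libraries did not overlap; forms from restricted tissues; and, in each other list, up to 3 genes past the test with the largest change, beside a few set regulators. Members named outside this rule, after their values were seen, were Atp5j2, Atp5s, Cox6a1, Cox6b1, Ndufa5, Ndufa9, Ndufab1, Ndufs3, Ndufs8, Uqcr11 and the untested or pseudogene members. Replicate numbers are shared by all groups. Same-numbered WT libraries deviated together in both apigenin comparisons (correlations 0.231 to 0.556 without MSU and 0.13 to 0.392 under MSU). In MSU in WT the correlations were 0.094 to 0.537. The main fit had no block, so its calls are not from a paired test, and a replicate block was run only as an alternative.

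Alternatives were other scalings (DESeq2 size factors, library totals, upper quartile, without the mitochondrial genome), other filters, DESeq2 1.42.0, limma 3.58.1 on log2(FPKM + 0.5) and log2(FPKM + 0.1), the groups of a comparison alone, a replicate block, the treatment tags as groups, WT replicate 3 alone, and each library left out in turn. A replicate block in the 12 WT libraries alone was added after the data were seen.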

Additional observations from a re-analysis of the deposited data

How the results depend on the processing

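Counts of members past the test kept within 1.5 times of the main value under most settings, with these exceptions. Apigenin without MSU gave 15 higher and 5 lower with library totals, 21 and 3 with limma on log2(FPKM + 0.5) and again on log2(FPKM + 0.1), 6 higher with WT replicate 3 alone and 39 with a log2FC of at least 1. Under MSU it gave 34 higher and 4 lower with library totals, 40 and 3 with both limma fits, and 23 with WT replicate 3 alone. The members' median log2FC was then 0.31 and 0.54 with library totals. With a replicate block the apigenin counts were 69 and 75 higher, or 73 and 76 in the WT libraries alone (a setting chosen after seeing the data), with 0 lower in each. With the treatment tags as groups they were 65 and 75. With each library left out in turn, 47 to 71 rose without MSU and 67 to 75 under MSU. MSU in WT gave 1 higher with DESeq2, and 1, 4, 2 and 1 lower with library totals, both limma fits and the replicate block, and MSU in CD38KO gave 1 higher with DESeq2. CD38KO against WT without crystals gave 2 lower with DESeq2 and with limma on log2(FPKM + 0.1), 0 with the groups of the comparison alone and with WT replicate 3 alone, and 0 to 1 with single libraries left out. Under MSU it gave 8 higher with DESeq2, 11 with the replicate block, 0 with DESeq2 size factors, upper quartile factors, no filter, edgeR's own filter, the groups of the comparison alone, WT replicate 3 alone or a log2FC of at least 1, and 0 to 6 with single libraries left out. The cause of these moves was not tested.

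Among named members past the test in either of the fits compared, directions reversed on the scales that use library totals or FPKM and under no other setting run. Values past the test in neither also changed sign, among them Cox6a2 in both apigenin comparisons. The members' median in CD38KO non-treated against WT non-treated turned to -0.18 with WT replicate 3 alone, and that of MSU in WT was then -0.54. In the order library totals, limma on log2(FPKM + 0.5) and on log2(FPKM + 0.1), log2FC without MSU was -0.29, -0.25 and -0.27 for Ndufs1, -0.51, -0.48 and -0.49 for Ndufv2, -0.17, -0.16 and -0.16 for Sdha, -0.34, -0.32 and -0.33 for Sdhb, -0.26, -0.23 and -0.24 for Uqcrc1, and -0.36, -0.35 and -0.35 for Uqcrc2, and Uqcrfs1 was at -0.40 with library totals. Under MSU it was -0.064, -0.037 and -0.037 for Ndufc2, -0.35, -0.30 and -0.32 for Ndufs1, -0.14, -0.10 and -0.10 for Ndufv2, -0.13, -0.11 and -0.11 for Sdhb, -0.24, -0.21 and -0.21 for Uqcrc1, -0.44, -0.40 and -0.41 for Uqcrc2, and -0.56, -0.53 and -0.54 for Uqcrfs1. Of the other values of named members, 140 lost and 19 gained a call under other settings and 730 stayed on their side of the threshold, called or not. With single libraries left out 56 lost and 10 gained a call and 1140 stayed on their side.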
